A study of Caenorhabditis elegans with 2 samples.

Results

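Chromatin immunoprecipitation with sequencing (ChIP-seq) of the C. elegans homeodomain protein CEH-45 was examined at the tRNA genes of the X chromosome. The series' larger ranked list holds 108916 candidate peaks on build ce11, of which 18940 lie on X. A candidate was taken when its summit, the position of highest signal in the peak, lay within 250 bp of a gene annotated as a tRNA gene, and 235 candidates on X met this rule. They lie at 225 of the 276 tRNA genes that the annotation places on X, out of 612 nuclear tRNA genes in all, and the other 51 genes had no candidate in reach. The choice used position alone, so the signals and the authors' reproducibility calls were free to vary among the members.

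Both libraries came from one strain and stage: whole late embryos of RW12292, labelled as 2 hours of age and obtained by egg bleaching. The strain carries the insertion st12292[ceh-45::TY1::EGFP::3xFLAG] on chromosome I, made by CRISPR, so every sample holds the tagged protein and there is no untagged or second condition. Chromatin was sonicated, fragments of 200 to 800 bp were kept, and an anti-GFP antibody was used, while the label for the antibody reads ceh-45. The 2 samples are labelled as separate biological replicates, the embryos were used whole so that cell types are mixed, and the control named in the labels is not analysed here.

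Transfer RNA genes are transcribed by RNA polymerase III from a promoter that lies inside the gene. Its A box sits near the start of the transcribed sequence and its B box further in, both are bound by the factor TFIIIC, and transcription ends at a short run of T bases past the gene. CEH-45 belongs to the goosecoid class of homeodomain proteins, transcription factors whose class is known for binding the core TAATCC at genes read by RNA polymerase II. Worm tRNA genes are small, many are copies with the same sequence, and many lie in introns of protein-coding genes.

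The sequences below are shown because identical gene copies differed in whether a peak passed. They were read from the RefSeq genome WBcel235 (ce11 coordinates) in the sense of the tRNA gene. Each of the first 7 starts 120 bases before the gene and ends 20 bases past it, with capitals marking the exons of the tRNA. The first is the X tRNA gene with the highest signal, the tRNA-Leu gene C04A11.t1, at chrX:13665435-13665693 on the plus strand. After it come 3 pairs of copies, each pair with one gene sequence, and in each pair the first gene had a passing peak and the second had no candidate within reach. The tRNA-Tyr pair is C02B4.t2 (chrX:12665108-12665331, plus strand) and R11.t2 (chrX:16209208-16209431, minus strand). The tRNA-Lys pair is C33G3.t2 (chrX:14063926-14064138, minus strand) and F43C9.t1 (chrX:4789012-4789224, plus strand). The tRNA-Pro pair is ZK899.t1 (chrX:9467709-9467920, minus strand) and ZK678.t3 (chrX:15751300-15751511, plus strand).
C04A11.t1: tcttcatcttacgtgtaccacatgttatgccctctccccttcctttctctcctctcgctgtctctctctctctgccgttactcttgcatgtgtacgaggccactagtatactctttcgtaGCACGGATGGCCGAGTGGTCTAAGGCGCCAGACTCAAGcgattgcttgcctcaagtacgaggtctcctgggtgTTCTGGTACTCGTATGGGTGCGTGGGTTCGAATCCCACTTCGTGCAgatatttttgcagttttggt
C02B4.t2: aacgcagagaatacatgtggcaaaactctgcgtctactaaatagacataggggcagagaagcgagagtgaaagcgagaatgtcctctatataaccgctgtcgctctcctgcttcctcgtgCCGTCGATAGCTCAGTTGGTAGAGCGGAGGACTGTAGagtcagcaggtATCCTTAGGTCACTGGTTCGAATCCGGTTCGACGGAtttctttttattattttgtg
R11.t2: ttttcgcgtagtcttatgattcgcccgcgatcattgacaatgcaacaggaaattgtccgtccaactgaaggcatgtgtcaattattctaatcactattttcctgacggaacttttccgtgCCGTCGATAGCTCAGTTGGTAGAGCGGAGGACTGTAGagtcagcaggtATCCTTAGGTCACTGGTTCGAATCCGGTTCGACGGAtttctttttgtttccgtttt
C33G3.t2: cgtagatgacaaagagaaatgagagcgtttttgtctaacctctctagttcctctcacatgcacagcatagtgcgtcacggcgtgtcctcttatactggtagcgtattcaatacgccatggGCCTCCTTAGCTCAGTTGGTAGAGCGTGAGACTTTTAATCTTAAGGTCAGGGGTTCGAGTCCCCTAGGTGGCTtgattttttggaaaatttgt
F43C9.t1: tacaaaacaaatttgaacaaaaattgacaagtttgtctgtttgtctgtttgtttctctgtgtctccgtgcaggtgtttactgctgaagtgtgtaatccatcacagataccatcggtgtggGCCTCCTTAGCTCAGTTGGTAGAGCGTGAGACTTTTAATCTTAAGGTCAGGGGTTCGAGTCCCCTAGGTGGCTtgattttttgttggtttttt
ZK899.t1: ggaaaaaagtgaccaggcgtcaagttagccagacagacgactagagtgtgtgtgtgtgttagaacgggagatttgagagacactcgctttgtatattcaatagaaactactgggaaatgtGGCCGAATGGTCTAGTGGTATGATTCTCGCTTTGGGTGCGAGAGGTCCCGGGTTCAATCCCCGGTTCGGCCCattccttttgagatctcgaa
ZK678.t3: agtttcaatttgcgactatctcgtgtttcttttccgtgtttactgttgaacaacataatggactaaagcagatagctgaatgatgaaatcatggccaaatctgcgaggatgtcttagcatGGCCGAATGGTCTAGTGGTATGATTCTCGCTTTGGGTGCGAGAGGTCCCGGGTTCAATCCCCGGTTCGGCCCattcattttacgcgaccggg
The last pair shows only the 120 bases before the tRNA-Trp genes sup-7 (chrX:6371258-6371377, plus strand, with a passing peak) and sup-21 (chrX:8877220-8877339, plus strand, with no candidate in reach). Mutant forms of both genes are known as suppressors of amber stop codons.
sup-7: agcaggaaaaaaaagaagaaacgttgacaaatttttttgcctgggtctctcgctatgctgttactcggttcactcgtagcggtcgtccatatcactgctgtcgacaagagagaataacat
sup-21: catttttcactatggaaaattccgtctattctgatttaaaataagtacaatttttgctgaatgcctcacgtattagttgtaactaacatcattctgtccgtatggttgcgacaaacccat

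Of the 235 candidates at X tRNA genes, 68 were in the authors' thresholded set, the peaks that the authors kept after ranking by irreproducible discovery rate (IDR), which estimates what fraction of the peaks down to some rank would not repeat. This is 28.9% (exact 95% binomial interval 23.2 to 35.2), where 0.503% of all candidates and 0.655% of X candidates were in the set. Intervals of shares cover counting error over peaks or genes only, since the lists hold no read counts and the depth of each library is unknown. Seen from the set, these 68 peaks were 54.8% (interval 45.7 to 63.8) of the 124 passing peaks on X, and 19 of the 20 passing X peaks of highest signal were at tRNA genes. All members with a global IDR of 0.01 or less were in the set, whereas 26 X candidates with such a value were not.

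The members are intervals rather than separate sites. Of them, 198 had 1 tRNA gene in reach, 36 had 2 and 1 had 3, and 48 genes had 2 members. They form 202 groups of overlapping intervals, of which 64 hold a passing peak. Counted by gene, 74 of the 276 X tRNA genes had a passing peak in reach, or 26.8% (interval 21.7 to 32.5).

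Signal here means the value the authors gave each peak, in units that the sources do not tie to read depth or to a control. Members had a median signal of 35.4, with a lower quartile of 17.1, an upper quartile of 70.2 and a range of 2.13 to 258. All candidates together had a median of 19.4, and 68.9% of the members lay above it. Passing members had a median of 111.5 (3.53 to 258) and the other 167 members one of 23.9 (2.13 to 72.2). The set was made from the same replicates as the signal, so this difference is not independent of the choice of the set. The highest signal of the whole list was 2465, and that of the thresholded set was 451, so the members reached neither maximum.

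**Figure D1:**
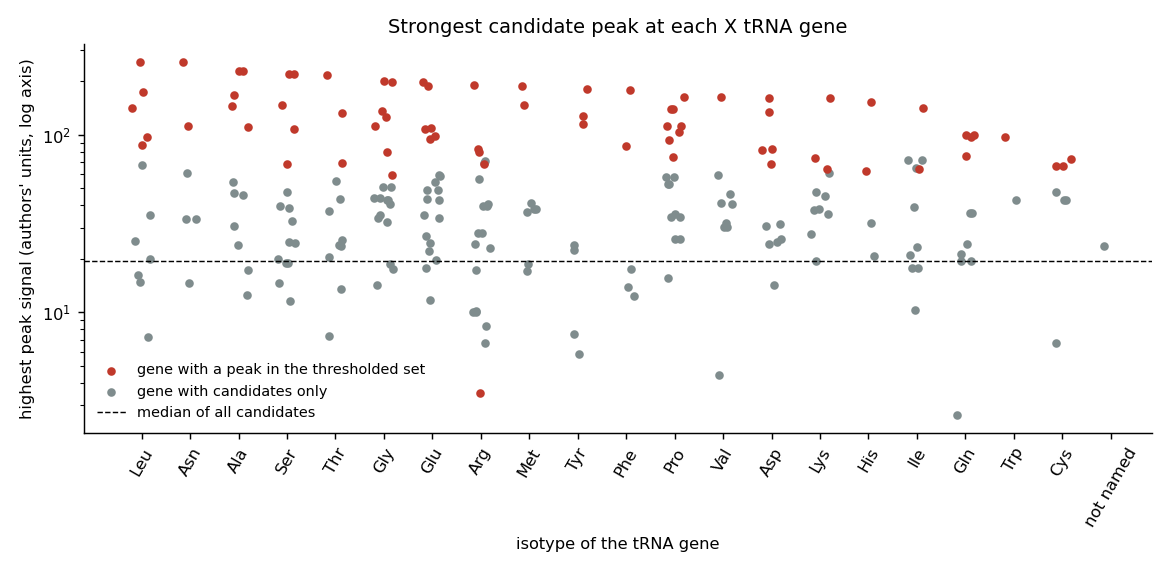
Highest peak signal at each of the 225 X tRNA genes with a candidate in reach (log axis), by the amino acid the tRNA carries; red points are genes with a peak in the thresholded set, grey points genes with candidates only, and the dashed line is the median of all candidates, 19.4. Every named isotype has at least 1 red point, and all but the one at 3.53 lie above the line.

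The replicates' own lists showed the same order of shares. In replicate 1, 149 candidates lay at X tRNA genes and 46 of them, 30.9% (interval 23.6 to 39.0), were in that replicate's set, where 0.623% of all its candidates were. In replicate 2, 49 of 153, or 32.0% (24.7 to 40.04), were in the set against 0.524% of all its candidates. The conservative list of the series gave 62 of 192, or 32.3%, against 0.645%. The median signal of the members was 29.0 in each replicate, beside medians of 16.5 and 15.6 over all candidates of replicates 1 and 2.

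At the level of genes, 51 X tRNA genes had a passing peak in replicate 1 and 56 in replicate 2, with 43 in both. Of the 74 genes of the series set, 43 were in both replicates' own sets, 19 in 1 of them and 12 in neither, and 72 had a candidate in both. Best signals per gene in the replicates gave a Pearson r of 0.77 on the log10 scale and a Spearman rho of 0.79 over the 129 genes with a candidate in both lists. These are descriptions across genes, since all points share the same libraries and identical gene copies share sequence. The ratio of replicate 1 to replicate 2 had a median of 1.05 and ran from 0.303 to 4.57. In the 72 passing genes it ran from 0.322 to 2.93, and 40 of them were higher in replicate 1.

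**Figure D2:**
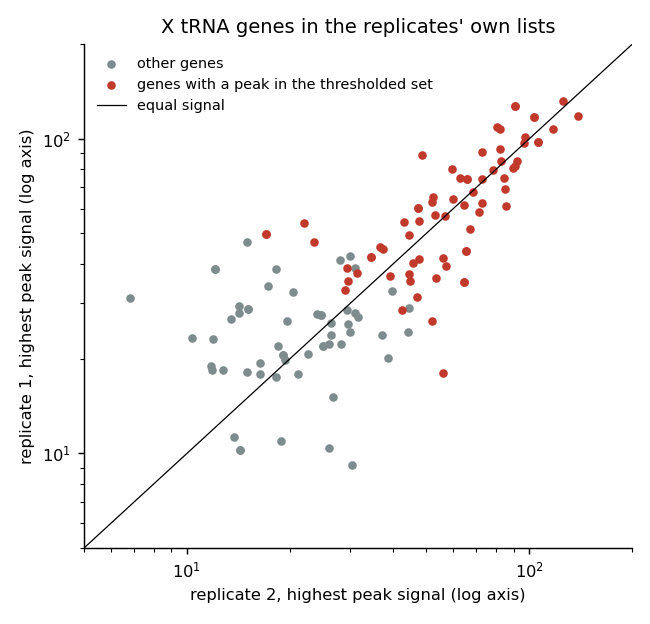
Highest peak signal of each X tRNA gene in replicate 1 against replicate 2 (log axes), for the 129 genes with a candidate in both replicates' own lists; red points are the 72 with a peak in the series' thresholded set, and the line marks equal signal. Points follow the line with a Spearman rho of 0.79, and the red points lie toward its upper end. The set was made from these same replicates, so the place of the red points is not a separate result.

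The 5 strongest members were nearest to genes of different isotypes. The tRNA-Leu gene C04A11.t1, an intergenic gene with an intron of its own whose sequence occurs 1 time in the assembly, had a signal of 258.2, with 131.7 in replicate 1 and 125.1 in replicate 2. The tRNA-Asn gene F41D9.t3 lies in an intron of sulp-3, a gene of the sulfate permease family, on the opposite strand, and had a signal of 256.8 (117.7 in replicate 1 and 138.7 in replicate 2). Next was the tRNA-Ala gene F15G9.t1 in an intron of him-4, which encodes the extracellular matrix protein hemicentin, at 229.2 (117.1 and 102.9). Its neighbour F15G9.t2, also tRNA-Ala, is 86 bp away and in reach of the same peak. Neither replicate was the higher at all 3 genes.

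Further peaks of high signal were at the intergenic genes C53C7.t1 (tRNA-Ser, 219.7), R01H5.t1 (tRNA-Thr, 216.2), M02F4.t1 (tRNA-Gly, 199.5) and F28H6.t1 (tRNA-Arg, 190.9). Those in introns were F17H10.t1 (tRNA-Gly, 201.01) in the sorting nexin gene snx-17, C02F12.t1 (tRNA-Met, 189.3) in C01C4.3, C02B4.t2 (tRNA-Tyr, 180.9) in the nuclear hormone receptor gene nhr-17 and T28B4.t1 (tRNA-Phe, 179.6) in the F-box gene fbxl-4. C28G1.t1 (tRNA-Glu, 188.2) is the only X tRNA gene that overlaps an annotated exon, that of C28G1.2 on the same strand. All 12 of these genes were in the sets of both replicates, and all but M02F4.t1 in the conservative set. Across them the signal ran from 84.8 to 131.7 in replicate 1 and from 80.4 to 138.7 in replicate 2.

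All 20 isotypes named on X had at least 1 gene with a passing peak. The highest counts were tRNA-Pro with 8 of 20 genes, tRNA-Gly with 7 of 20 and tRNA-Glu with 6 of 23, and the lowest were tRNA-Val with 1 of 14 and tRNA-Trp with 1 of 5. Counts depend on the number of genes, and the share over all X tRNA genes was 26.8%. By share, tRNA-Cys (3 of 7, 42.9%) and tRNA-Asp (5 of 12, 41.7%) were highest among named isotypes. The lowest shares were those of tRNA-Val (7.14%) and tRNA-Ile (2 of 13, 15.4%), and tRNA-Glu had 26.1%. With so few genes per isotype the exact intervals are wide, for example 19.1 to 63.9% for tRNA-Pro and 0.181 to 33.9% for tRNA-Val, and they overlap. The strongest gene of each further isotype was ZK899.t1 for tRNA-Pro (162.5), R04D3.t2 for tRNA-Val (162.5), C33G3.t2 for tRNA-Lys (161.7), C06G1.t1 for tRNA-His (152.8) and C42D8.t1 for tRNA-Ile (141.5). For tRNA-Asp it was F38G1.t2 (161.7), in an intron of egl-17, which encodes a fibroblast growth factor. For tRNA-Gln it was H08J11.t3 (99.7), in an intron of ajm-1, which encodes a protein of the apical junction.

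Among the named isotypes, cysteine and tryptophan tRNA genes had the lowest maxima. The strongest tRNA-Cys gene, F42D1.t1, had a signal of 73.0, with 54.1 in replicate 1, where it was in the set, and 22.01 in replicate 2, where it was not. At tRNA-Cys genes 2 of 3 members were in the replicate 1 set and 0 of 3 in that of replicate 2. The strongest tRNA-Trp gene, sup-7, had a signal of 97.5, with no candidate in replicate 1 and 54.97 in replicate 2, where it was in the set. The other sup genes on X, chosen after their values were seen, have the same gene sequence as sup-7 and none had a candidate in the series list: sup-21 and sup-33 had none in either replicate, and sup-28 had 25.9 in replicate 1 and 26.3 in replicate 2 without being in either set. F47E1.t3, an X tRNA gene to which RefSeq gives no product, had 23.7 and was not in the set.

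Values around the threshold overlapped in signal. Just inside the set by IDR were the peaks at R02E12.t1 (tRNA-Gly, signal 59.5, IDR 0.00792), F47E1.t1 (tRNA-Gln, 76.3) and ZC449.t1 (tRNA-His, 62.4). Just outside were C03A3.t1 (tRNA-Arg, 71.1, IDR 0.0102), C02D4.t1 (tRNA-Ile, 72.2, in an intron of the tyramine receptor gene ser-2) and C40H5.t1 (67.5, IDR 0.0103). C02D4.t1, C02B4.t1 (tRNA-Ile, 72.1) and C03A3.t1 had the highest signals outside the set. A few intervals in the set had low signals, among them those nearest to F12D9.t5 (3.53) and F32A6.t1 (6.30), named after their values were seen. Each overlapped another passing interval of higher signal. These were the peak nearest to F12D9.t1 (66.6) and the main peak of F32A6.t1 itself (86.6).

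Summits of most passing members lay inside the tRNA gene. Measured along the sense strand from the first base of the nearest tRNA gene, the median summit of the 68 passing members was at 20.5 bp (quartiles 1.5 and 42.25). It was 20.5 bp in the set of replicate 1 and 15 bp in that of replicate 2. In 45 of 68, or 66.2% (interval 53.7 to 77.2), the summit was inside the gene, and in 64 of 68, or 94.1%, it was within 50 bp, while the range ran from −168 to 174 bp. Of the 167 other members, 55 (32.9%, interval 25.9 to 40.6) had the summit inside the gene and 94 (56.3%) within 50 bp, with quartiles of −34 and 97 bp. Summits are given by interval, and 230 members are 304 bp wide with the summit near the middle, so the position of 1 peak is coarse against a gene of this size.

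**Figure D3:**
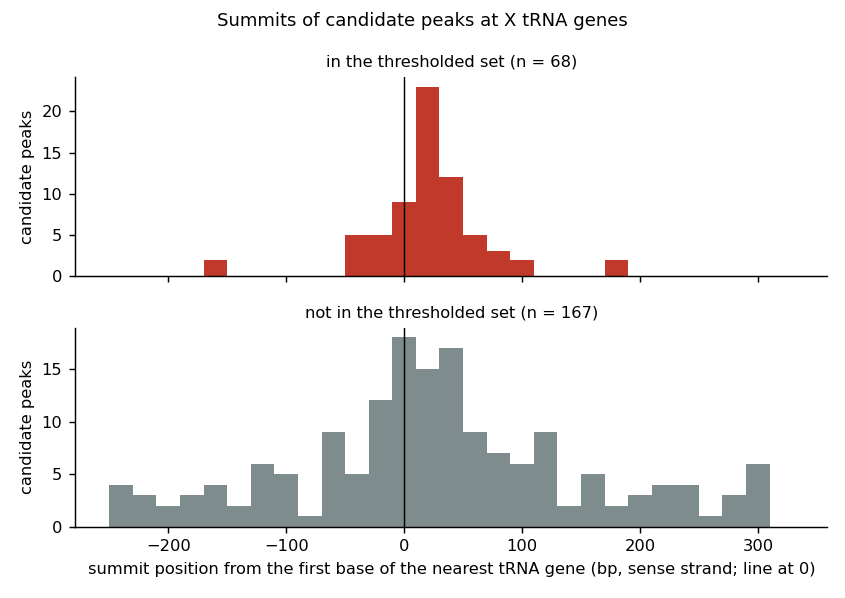
Number of candidate peaks by summit position from the first base of the nearest X tRNA gene (bp along its sense strand, line at 0), above for the 68 members in the thresholded set and below for the 167 others. The upper histogram is gathered around its median of 20.5 bp, and the lower one runs from −244 to 307 bp.

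Shares at intergenic and intronic tRNA genes were close. At intergenic tRNA genes (180 genes) 44 of 153 members were in the set, 28.8% (interval 21.7 to 36.6), and at intronic ones (95 genes) 23 of 81 were, 28.4% (18.9 to 39.5). Among intronic genes, those on the strand opposite to the host had 14 of 45 genes with a passing peak (31.1%, interval 18.2 to 46.6), and those on the same strand 10 of 50 (20%, interval 10.03 to 33.7). By member the shares were 31.8% and 24.3% in the series list, 33.3% and 17.4% in replicate 1, and 40% and 23.1% in replicate 2. The share was higher on the opposite strand in each list, and the intervals overlap. Median signals of members in the series list ran the other way, at 27.6 on the opposite strand and 39.4 on the same strand. In replicate 1 they were 27.9 and 27.1, and in replicate 2 38.5 and 25.2. The strand of the tRNA gene is not read by ChIP-seq, so a peak cannot be assigned to the tRNA gene rather than to its host.

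By gene, 24 of 95 intronic tRNA genes had a passing peak (25.3%), near the 26.8% of all X tRNA genes. Of the 67 protein-coding hosts, 45 held no tRNA gene with a passing peak, and of the 8 hosts with 3 or more tRNA genes in their introns 5 held none. With so few genes per host, having none does not set a host apart. K01A12.3 held 5 tRNA-Arg and tRNA-Cys genes with no passing peak and a highest signal of 43.2. The introns of ajm-1 held 5 tRNA-Gln genes, 2 of them in reach of the same passing peak. Of the hosts with 3 such genes, tbc-12 (a Rab regulator of the TBC family) and unc-58 (a potassium channel) each had 1 with a passing peak. None of the 3 passed in deg-1 (a degenerin channel), pix-1 (an exchange factor that binds PAK kinase), srxa-9 (a receptor of the chemoreceptor class) or wrt-9 (a hedgehog-related gene).

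Genes were then grouped by the distance to the next tRNA gene. Genes whose next tRNA gene was over 5000 bp away had a passing peak in 35 of 97 cases, 36.1% (interval 26.6 to 46.5). The share was 21.1% (15 of 71; 12.3 to 32.4) at 500 to 5000 bp and 22.2% (24 of 108; 14.8 to 31.2) under 500 bp. In replicate 1 the 3 shares of genes were 25.8%, 15.5% and 13.9%, and in replicate 2 they were 29.9%, 15.5% and 14.8%. Autosomal tRNA genes had 27.9%, 15.5% and 20.97% in the same order. Isolated genes thus had the highest share in each list, with intervals that overlap those of closer genes.

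Closely spaced genes, under 500 bp apart, formed 43 clusters of 108 genes, and 11 clusters (25.6%) held a passing gene. Among the 168 lone genes 50 passed (29.8%), and over all X tRNA genes the share was 26.8%. The count of clusters thus does not set them apart. Clusters named here were chosen after their values were seen. Of a cluster of 6 tRNA-His genes at F28H6, 5 had no candidate in reach and none passed, while all genes passed in a cluster of 4 isotypes (F22F1.t4 to F22F1.t7) and in one of 3 tRNA-Pro genes (C16B8.t1 to C16B8.t3). Intervals are about as wide as these gaps, so neighbours share peaks. The tRNA-His genes without a passing peak also had 69.9% of the 31-base words in and around them repeated elsewhere in the genome, against 33.9% for C06G1.t1, and the part of read mapping in this was not tested.

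Shares by copy number were 18.2% (10 of 55) for genes whose sequence occurs 1 time in the assembly, 21.9% (7 of 32) for 2 to 5 copies, 30.2% (16 of 53) for 6 to 10 and 30.1% (41 of 136) above 10. In replicate 1 they were 3.64%, 12.5%, 22.6% and 24.3%, and in replicate 2 10.9%, 18.8%, 24.5% and 22.8%. Genes with 1 copy had the lowest share in all 3 lists. The share of repeated 31-base words had a median of 31.9% in passing genes and 31.0% in the other genes with a candidate and in those without one. Genes with more than 50% of these words repeated numbered 0 of 74 with a passing peak, 6 of 151 with other candidates and 6 of 51 without a candidate. Reads that fit several copies may be placed or dropped by the aligner, which is not given in the sources used here, so a peak at a copy could hold reads of another.

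X was also divided into 3 equal lengths, a division chosen after the values were seen. In the left one, 26 of 51 tRNA genes had a passing peak, 50.98% (interval 36.6 to 65.2), against 25 of 107 (23.4%; 15.7 to 32.5) in the middle and 23 of 118 (19.5%; 12.8 to 27.8) on the right. Replicate 1 gave 35.3%, 12.1% and 16.9% and replicate 2 41.2%, 15.0% and 16.1%. Among X candidates away from tRNA genes the shares in the set were 0.321%, 0.325% and 0.253%. On the left, intronic genes (11 of 21) and intergenic genes (15 of 30) had close shares, and by distance to the next tRNA gene the shares were 43.8% under 500 bp, 42.9% at 500 to 5000 bp and 61.9% beyond. The left part of X thus held the highest share over all genes in each list. Among genes of 1 to 5 copies replicate 1 went the other way, with 0% on the left, 0% in the middle and 13.3% on the right.

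**Figure D4:**
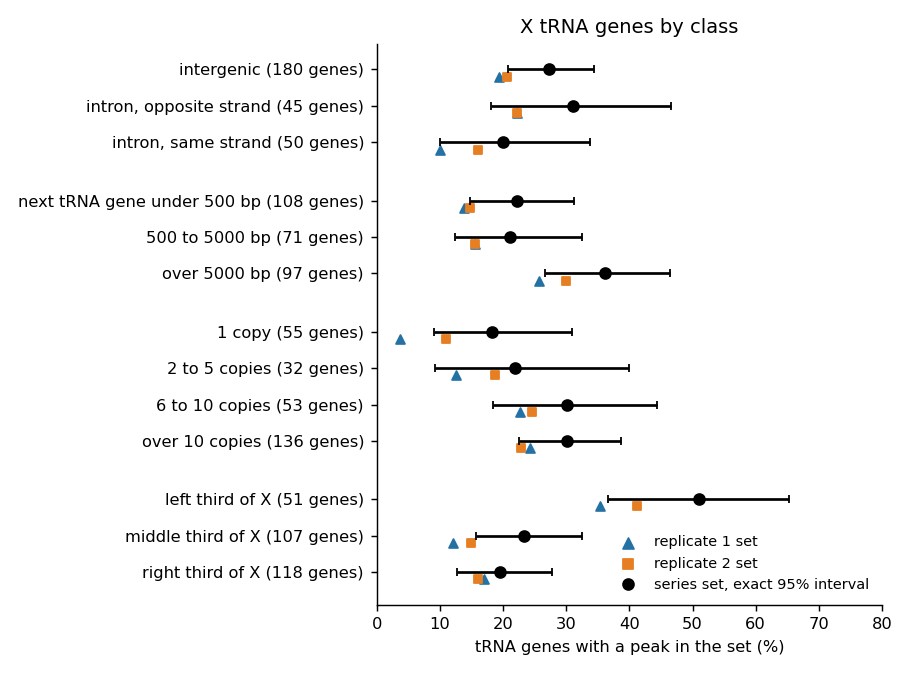
Share of X tRNA genes with a peak in the thresholded set, by place, spacing to the next tRNA gene, copies of the gene sequence in the assembly and position on X; black points are the series set with exact 95% binomial intervals, and blue triangles and orange squares are the sets of replicates 1 and 2. The left part of X stands highest at 50.98%, and most other intervals overlap.

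The DNA just before the gene was the next feature. The GC content of the 60 bases before the gene had a median of 45% in the 74 genes with a passing peak and 38.3% in the other 202, and it was 35% in the 51 without a candidate. The medians of passing and other genes were 43.3% and 41.7% on the left of X, 43.3% and 36.7% in the middle, and 46.7% and 38.3% on the right, so the gap was smallest on the left. Ordered by this GC content into 4 groups of 69 genes, 5 genes of the lowest group had a passing peak (7.25%), then 15 (21.7%), 28 (40.6%) and, in the highest group, 26 (37.7%). In replicate 1 the counts were 2, 10, 19 and 20, and in replicate 2 they were 2, 12, 21 and 21. Genes without any candidate numbered 21, 16, 6 and 8 in the same order. This comparison was chosen after the values were seen and has no test.

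Copies with the same gene sequence allow it to be seen with the gene held constant. The 276 X genes have 106 distinct sequences, and 33 of these are carried by 2 or more X genes. In 26 such families, with 184 genes, some copies had a passing peak (57 genes) and others did not, 7 families had none, and in no family did all copies pass. A copy counted as passing when any passing peak was in reach: 74 X genes were in reach of one, and 65 were nearest to one. Some copies thus share a peak with a neighbour, as M02F4.t1 (tRNA-Gly) and M02F4.t2 (tRNA-Glu) do, so the families are not all separate comparisons. In all 26 mixed families the mean GC of the 60 bases before the gene was higher in the copies with a passing peak, with family medians of 46.7% and 38.3%. In the 30 bases nearest the gene it was higher in 18 families, lower in 7 and equal in 1. From 61 to 120 bases before the gene it was higher in 24 of 26 families (44.2% against 33.1%), and from 121 to 300 bases in 12 of 26. Past the gene it was higher in 15 of 26 families over the first 60 bases and in 14 of 26 over the next 60.

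The same held in the replicates' own sets and in the conservative set. For bases 1 to 60 before the gene the passing copies were higher in 24 of 25 mixed families in replicate 1, in 25 of 25 in replicate 2 and in 25 of 25 in the conservative lists. For bases 61 to 120 the counts were 25, 24 and 24 of 25, and for bases 1 to 30 they were 17, 14 and 17 of 25. Autosomal families gave 24 of 32 for bases 1 to 60 (49.8% against 43.6%) and 22 of 32 for bases 61 to 120. By contrast the gap to the next tRNA gene was longer in the passing copies of 18 of the 26 X families and shorter in 8. Passing copies were on the left of X more often in 10 families, less often in 3 and equally often in 13.

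In the printed pairs, the 120 bases before the gene hold 48.3% GC in C02B4.t2 and 42.5% in R11.t2. They hold 46.7% in C33G3.t2 and 39.2% in F43C9.t1, and 43.3% in ZK899.t1 and 38.3% in ZK678.t3. For sup-7 and sup-21 the values are 43.3% and 34.2%. In the tRNA-Pro pair the 60 bases nearest the gene run the other way, at 38.3% and 41.7%, so the family means do not hold for each pair of copies. GC content also went with passing across the whole list: in 101 bp around the summit it had a median of 50.5% in all passing candidates and 37.6% in all candidates. In passing members it was 51.5% and in the others 41.6%. Summits lay inside the tRNA gene in 66.2% of passing members and 32.9% of the others, so these windows hold unlike amounts of the gene itself. The part of this, or of GC-dependent recovery or sequencing of DNA fragments, in the GC differences was not tested.

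**Figure D5:**
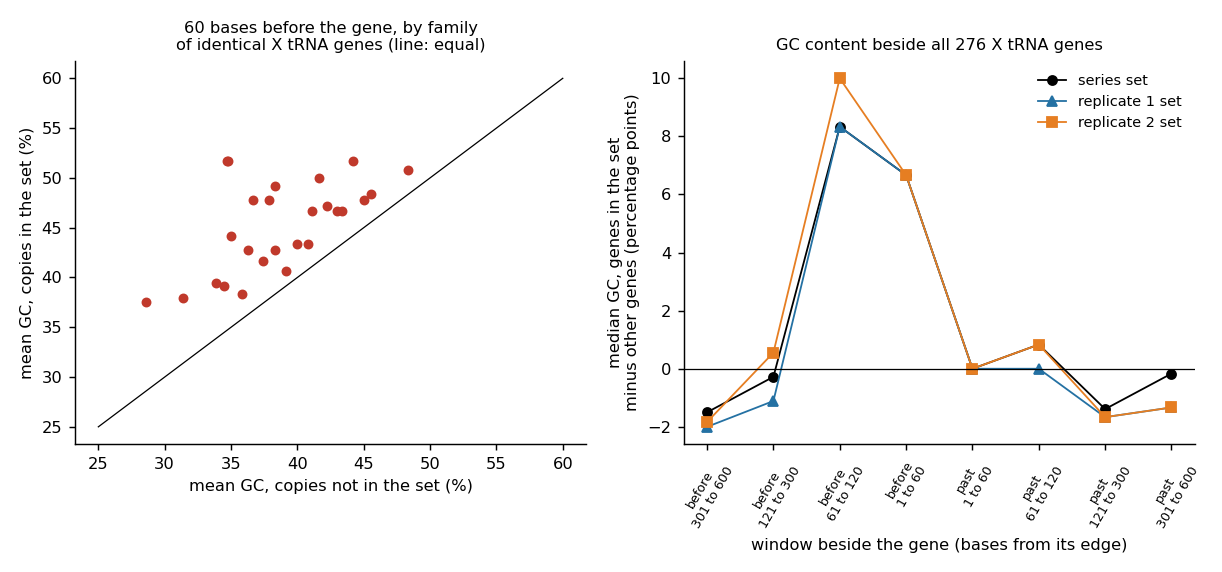
Left, mean GC of the 60 bases before the gene (%) in passing copies against the other copies, 1 point for each of the 26 families of identical X tRNA genes with both kinds, with the line of equality; all points lie above it. Right, median GC of genes in the set minus that of other X tRNA genes (percentage points) in windows before and past the gene, for the sets of the series and of each replicate; the difference is largest in the 2 windows that cover bases 1 to 120 before the gene.

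Sequence words inside and around the genes were searched on the sense strand of the gene, and around summits on both strands. The B box core GTTCGA was in 66.2% of genes with a passing peak (interval 54.3 to 76.8), 72.2% of those with other candidates, 82.4% of those without a candidate and 72.2% of all 612 nuclear tRNA genes. The A box core TGGCNNAGT was in 10.8%, 7.95% and 5.88% of the 3 classes and in 9.97% of all tRNA genes. A run of TTTT began within 40 bp past the gene in 74 of 74, 149 of 151 and 50 of 51 genes. The exact letters of the A box and B box vary among tRNA genes, so a gene without a match may still hold the box.

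In the 101 bp around the summit, TAATCC was found in 3 of 235 members, 1.28% (interval 0.264 to 3.69), and in 3.65% of all candidates. These were E03E2.t1 (tRNA-Ser, signal 146.5) in an intron of cat-1, which encodes the vesicular monoamine transporter, F02D10.t2 (tRNA-Ser, 107.8) and F55G7.t1 (tRNA-Thr, 23.5). The first pair were in the set. Both carry the same tRNA-Ser gene sequence, so they may not be separate occurrences of the word. Whether the word lies in that sequence was not tested. Among passing peaks alone, TAATCC was in 2.94% of members and 2.55% of all candidates. The homeodomain core TAATTA was in 1.28% of members and 3.86% of all candidates. It was in 0 of the 68 passing members, with an exact upper bound of 5.28%, and in 0.912% of all passing candidates. GTTCGA was in 31.1% of members and 45.6% of passing members, beside 3.80% of all candidates. Members were chosen by nearness to tRNA genes, 72.2% of which hold GTTCGA, so a higher share than in all candidates was built into the choice. Summits lay inside the gene in 66.2% of passing and 32.9% of other members, and the part of this in the share of passing members was not tested.

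In the series list 23.1% of 329 candidates at autosomal tRNA genes were in the set (interval 18.7 to 28.0) beside 28.9% on X, and by gene the shares were 23.5% (79 of 336) and 26.8%, with intervals that overlap. In replicate 1 the autosomal share of candidates was 18.7% (13.8 to 24.5) beside 30.9% on X, and in replicate 2 it was 15.6% (11.1 to 21.1) beside 32.0%, where the intervals of replicate 2 do not overlap. Median signals of these candidates were 36.6 on the autosomes and 35.4 on X. Other genes read by RNA polymerase III gave 0 of 8 candidates in the set at 5S rRNA genes (exact upper bound 36.9%). At yrn-1, the Y RNA gene, 0 of 2 were in it (upper bound 84.2%). The 5S candidates had a median signal of 34.9, near that on X, and their highest of 109.5 exceeded the 72.2 of non-passing members. The single candidates at rpr-1 (the RNA of RNase P, signal 240.0) and mrpr-1 (the RNA of RNase MRP, 140.2) were both in the set. Near tRNA pseudogenes of X away from tRNA genes, 0 of 18 candidates were in the set, with an exact upper bound of 18.5%. Their median signal was 14.6 and their highest 89.9. Near such pseudogenes of the autosomes 3 of 132 were in the set (2.27%), with a median signal of 21.7 and a highest of 212.5. At snoRNA genes 45 of 311 candidates were in the set (14.5%), and on X 1 of 26.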

How the data were processed

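The data are ChIP-seq peak lists of 2 replicates of 1 group. Per the notes deposited with the files, the authors made ranked and thresholded lists by IDR on build ce11 from the replicates' alignments and a control; neither aligner nor caller is given in the sources used here. The deposited signal is the authors' value per peak. The deposited −log10 of the global IDR reaches at most 5. The thresholded sets have a further input that the notes do not describe.

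Summits were matched to tRNA genes of Ensembl release 115 within 250 bp. A peak counted as passing when the set held its interval and summit. Isotypes came from RefSeq products, which named 607 of 612 nuclear tRNA genes and 273 of 276 on X. U6 genes are not named apart in the annotation and were not counted. Sequences and GC content came from the RefSeq genome WBcel235, whose chromosome lengths held all peaks. With 1 group and no read counts no test was made; shares carry exact 95% binomial intervals, and each replicate's own lists show the spread. Assignment was tested on simulated peaks. Python 3.11.15, numpy 2.4.6, pandas 2.3.3, scipy 1.17.1 and matplotlib 3.10.9 were used.

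Named were the 12 X tRNA genes of highest passing signal, the strongest of each isotype, the 3 strongest outside the set, the 3 just inside and outside it by IDR, and hosts with 3 or more tRNA genes in introns. The members, lists and comparisons were chosen with earlier results of these data known, and the analyses by position on X, copy number, clusters, GC content and identical families were chosen after seeing the data. Alternatives were other distances, the conservative lists, overlap in place of identity, a stricter IDR, merged intervals, RefSeq genes, 1-copy genes and each replicate alone.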

Additional observations from a re-analysis of the deposited data

How the results depend on the processing

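Of 90 alternative values, 59 stayed close to the reported one (a share within its interval, a count within 1.5 times, a median within 1 SD of the replicates) and 31 moved. The cause of each move was not tested. Median signals and summits use all members, so a stricter IDR or overlap in place of identity could not change them. Those values are counted among the 59. At an IDR of 0.001 the shares in the set were 13.6% of X members (13.6% intronic, 13.1% intergenic), 4.86% of autosomal ones, and 23.5% and 10.2% of genes on the left and on the rest of X (reported: 21.3% for the rest), with 35 genes passing. At genes with 1 copy of their sequence the shares were 20.4% (X), 18.9% (intergenic), 16.1% (autosomal) and 13.3% (the rest of X), with 10 genes passing, a median signal of 24.6 and a median summit at 5.5 bp, against 21 bp over the strongest members of all genes. Within 500 bp the values were 22.04% (X) and 17.2% (autosomal), a signal of 25.1 and a summit at 23.5 bp, and within 100 bp the autosomal share was 30.3% and the signal 43.4. The median signal was 43.3 in the conservative list, 40.8 with overlapping members merged and 35.42 with RefSeq genes only, beside 35.40 reported. The SD for the median signal comes from replicate medians of 29.04 and 29.03, so even a very small change counted as a move. The conservative summit lay at 18 bp. With 1 replicate left out in turn, 51 to 56 genes passed, 18.5% and 20.3% of 276 and so below the interval of the reported share, the median signal was 29.0 each time, the summit lay at 18.5 to 20 bp, and the shares were 15.6% to 18.7% (autosomal), 35.3% to 41.2% (left) and 14.7% to 15.6% (the rest of X). No paired analysis was possible because there is 1 group. The unknown depth, the control not analysed here and the presence of the tag in both samples limit what the lists can separate.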
